A study of Arabidopsis thaliana with 6 samples.

Results

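The nuclear ribosomal RNA (rRNA) genes are described here in an RNA immunoprecipitation sequencing (RIP-seq) study of ASI1 in Arabidopsis thaliana. They were taken by gene identifier: AT3G41768 and AT2G01010, which encode 18S rRNA, and AT2G01020 and AT3G41979, which encode 5.8S rRNA. These 4 genes were the only rRNA genes among the 6351 genes listed in the deposited tables, and all 4 were listed in both tables. Together they took 99.5% of the listed counts of the ASI1 input library and 99.0% of those of the WT input library.

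The samples were whole Col-0 seedlings grown for 14 days, crosslinked with 0.5% formaldehyde and immunoprecipitated with an anti-Flag antibody. All were grown at 22 °C with 1% sucrose, under 16 h of light and 8 h of dark. A line labelled ASI1 gave 2 RIP libraries and 1 input library, and wild-type plants, labelled WT, gave 2 RIP libraries and 1 input library. The WT RIP is the background of the pull-down, and the input is the RNA before it. The labels do not say how the ASI1 line was made or which protein carries the Flag tag, nor whether RIP replicates are separate cultures. All p-values therefore reflect the spread between these libraries alone, and it may be technical. Those of the fitted models described later also take spread from other genes of the same libraries. With 1 input per genotype, the spread of the inputs was not measured.

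In plants, as in other eukaryotes, RNA polymerase I transcribes tandem repeats of rRNA genes in the nucleolus as a long precursor. The precursor is cut and trimmed into 18S rRNA, the RNA of the small ribosomal subunit, and into 5.8S and 25S rRNA, which pair with each other in the large subunit. Mature rRNA is by far the most abundant RNA of a plant cell, so libraries made without removing it are mostly rRNA. ASI1 is a chromatin protein with an RNA recognition motif, known for its part in the 3′ end choice of genes that carry silenced repeats within introns.

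The reference annotation (TAIR10.1) places 2 units that hold an 18S and a 5.8S gene on chromosomes 2 and 3. On chromosome 3, AT3G41768 spans 14197677 to 14199484 and AT3G41979 spans 14199753 to 14199916, both on the plus strand. On chromosome 2, AT2G01010 spans 3706 to 5513 and AT2G01020 spans 5782 to 5945, also on the plus strand. Each 18S gene is 1808 bases long and each 5.8S gene 164 bases, and all 4 are noncoding transcripts annotated as rRNA. The RefSeq product field of AT2G01020 reads 5S, while its note says 5.8S and its sequence is identical to that of AT3G41979. The authors' genome build is not given in the sources used here, so coordinates belong to the reference and not to the deposited tables.

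The sequences are shown because they set what the counts of each copy can mean. The 5.8S copies were identical at all 164 bases, so a read from one cannot be told from a read of the other. The 18S copies differed at 2 of 1808 bases, C489T and C1327T, where positions are counted from the 5′ end of the gene, the base of AT3G41768 stands first and that of AT2G01010 last. The differing bases lie 838 bases apart, and a short read that covers neither of them matches both copies equally. Below, the RefSeq sequences around both differences are given on the plus strand with the differing base in capitals, followed by the 5.8S sequence shared by both copies.
AT3G41768, chr3:14198125-14198205: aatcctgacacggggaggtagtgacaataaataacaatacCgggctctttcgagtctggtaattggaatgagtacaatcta
AT2G01010, chr2:4154-4234: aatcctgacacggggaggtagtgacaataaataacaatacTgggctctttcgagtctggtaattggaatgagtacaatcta
AT3G41768, chr3:14198963-14199043: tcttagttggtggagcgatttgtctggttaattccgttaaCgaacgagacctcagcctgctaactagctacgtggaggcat
AT2G01010, chr2:4992-5072: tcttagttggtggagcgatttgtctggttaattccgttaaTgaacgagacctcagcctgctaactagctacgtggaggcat
AT2G01020 and AT3G41979: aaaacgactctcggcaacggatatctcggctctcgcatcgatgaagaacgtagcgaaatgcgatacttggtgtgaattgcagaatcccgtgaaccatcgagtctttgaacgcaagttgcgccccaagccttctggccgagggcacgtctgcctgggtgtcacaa
Each 18S window was found once, on its own chromosome, in a search of both strands of chromosomes 2 and 3. The 5.8S sequence was found once on each of these chromosomes. The 268 bases between 18S and 5.8S, the first internal transcribed spacer of the unit, differed at 3 bases between the chromosomes (98.9% identity).

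**Figure D1:**
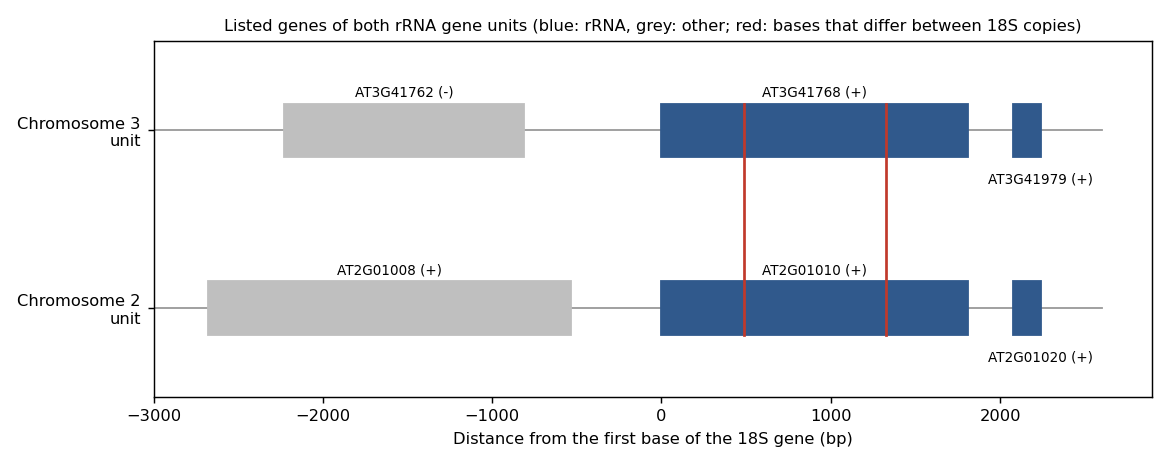
Map of the rRNA units of chromosomes 2 and 3, to scale, in bases from the first base of each 18S gene; blue boxes are rRNA genes, grey boxes the other listed genes, + and - the strand, and red lines mark the 2 bases that differ between the 18S copies. The 18S and 5.8S genes have the same lengths and spacing in both units, and each unit has 1 other listed gene upstream.

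The values are expected counts, reads assigned to genes by estimation, so a read that matches several genes can be divided among them. The listed counts summed to 4461715 in the ASI1 input and to 2566368 and 1804637 in ASI1 RIP 1 and 2. They summed to 6383274 in the WT input but to 119916 and 525126 in WT RIP 1 and 2, the lowest listed totals. Outside the rRNA genes, 23810 counts remained in the ASI1 input and 61644 in the WT input, against 448561 and 362058 in ASI1 RIP 1 and 2 and 23304 and 103549 in WT RIP 1 and 2. For genes other than rRNA, the ASI1 input was thus about as shallow as WT RIP 1, and WT RIP 2 was deeper than both inputs. All 5 leaf markers looked for were listed in both tables, but of 4 root markers 1 was listed for ASI1 and 2 for WT. The ASI1 gene, AT5G11470, was listed in the ASI1 table only, with 2.54 counts in the input and 114 and 201 counts in the RIP libraries, so the tables give no WT value to check the labels. Intervals below are exact 95% binomial intervals (Clopper-Pearson) and cover counting error only, because reads amplified by PCR are not independent molecules.

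The 18S rRNA of the small subunit made up nearly all of both inputs and a smaller, though still dominant, part of every RIP library. AT3G41768, the chromosome 3 copy, took 99.3% of listed counts in the ASI1 input (4429148 counts) and 79.3% and 76.7% in ASI1 RIP 1 and 2 (2034565 and 1385037 counts). In wild type it took 98.9% of the input (6314668 counts) and 77.3% and 76.6% of the RIP libraries (92663 and 402301 counts). Both inputs lay above all 4 RIP libraries, and the RIP libraries of the genotypes overlapped. The counting intervals were narrow even in the smallest library, WT RIP 1, at 77.0 to 77.5%. Where the inputs of the genotypes differ, whole seedlings cannot tell fewer cells of a type from less RNA per cell.

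The chromosome 2 copy of 18S, AT2G01010, held far fewer counts than its near-identical partner, and its RIP libraries lay on opposite sides of the input in the genotypes as a share of listed counts, but below the input in both genotypes relative to non-rRNA counts. It had 2560 counts in the ASI1 input (574 CPM, counts scaled to a listed total of 1000000), and 808 and 302 counts in ASI1 RIP 1 and 2 (315 and 168 CPM). In the WT input it had 3054 counts (478 CPM), and 250 and 423 counts (2086 and 805 CPM) after RIP. The inputs were alike, both ASI1 RIP libraries lay below them, and both WT RIP libraries lay above them in CPM, although the TMM-scaled fit described later puts the WT fold below 0. The mean RIP level was 0.420 of the input level in ASI1 and 3.02 times the input level in wild type.

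The division of 18S counts between the copies showed the same order. The chromosome 2 copy held 578 per 1000000 18S counts in the ASI1 input (95% interval 555 to 600), then 397 (370 to 425) and 218 (194 to 244) in ASI1 RIP 1 and 2. It held 483 (466 to 501) in the WT input, then 2691 (2368 to 3045) and 1050 (953 to 1155) in WT RIP 1 and 2. None of the 6 counting intervals overlapped another. The 2 WT RIP libraries also differed from each other, by more than the ASI1 input differed from the WT input. Over the 4 RIP libraries the highest value was 12.3 times the lowest. In a comparison of the 2 ASI1 with the 2 WT RIP libraries, 308 ± 127 against 1871 ± 1160 per 1000000 18S counts (SD, n = 2 each), the exact two-sided permutation test gave p = 0.333, the smallest that 2 against 2 libraries allow. The copies differ at 2 bases, so both values depend on how the authors' counting divided shared reads, and are uncertain.

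The opposite order was rare among the listed genes. Of the 2323 genes listed in both tables, 3 had both ASI1 RIP libraries below the ASI1 input in CPM, a background of 0.129%, and 76 had both WT RIP libraries below the WT input (3.27%). Both RIP libraries lay above the input for 1219 genes in ASI1 (52.5%) and for 1104 in wild type (47.5%). AT2G01010 and AT3G62870, which encodes a large-subunit ribosomal protein of the L7a family, were the 2 genes (0.0861%) that lay below the input in ASI1 and above it in wild type. AT3G62870 was named after its values were seen, and 5 of its 6 libraries held under 20 counts. AT3G41768 was the 1 gene (0.043%) below the input in both genotypes. The 5.8S genes were 2 of 627 genes (27%) that lay above it in both. CPM is a share of a total that AT3G41768 dominates, so a gene's CPM depends on how much 18S the library held.

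**Figure D2:**
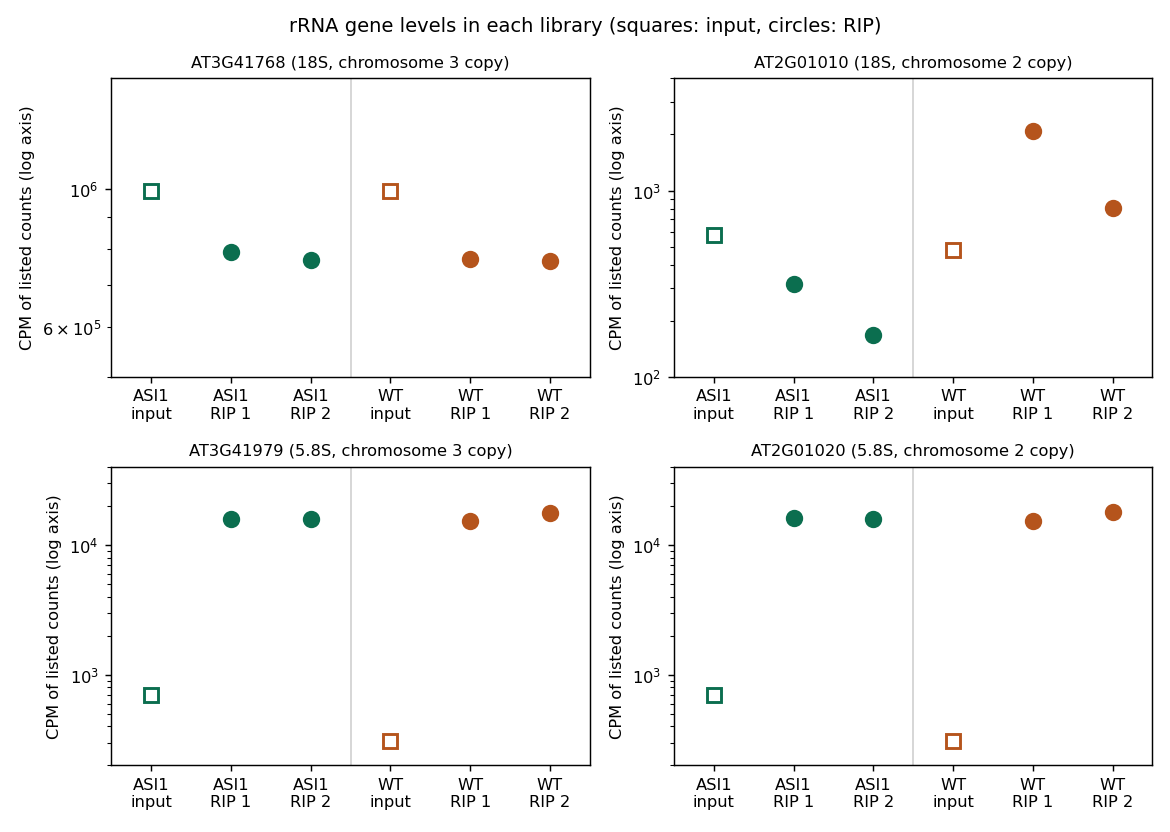
Level of each rRNA gene in the 6 libraries, in CPM of listed counts on a log axis; each point is 1 library, squares for inputs and circles for RIP libraries, with a panel per gene. The 5.8S copies lie between 306 and 695 CPM in the inputs and between 15408 and 18041 CPM in the RIP libraries, while AT2G01010 lies lower in the ASI1 RIP and higher in WT RIP 1 and 2 than in the inputs.

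The 5.8S rRNA of the large subunit was a minor part of the inputs and a far larger part of every RIP library, of ASI1 and of wild type alike. AT2G01020 had 3097 counts in the ASI1 input (694 CPM), and 41365 and 28632 counts in ASI1 RIP 1 and 2 (16118 and 15866 CPM). It had 1953 counts in the WT input (306 CPM), and 1852 and 9474 counts in WT RIP 1 and 2 (15441 and 18041 CPM). All 4 RIP libraries lay above both inputs, and the ASI1 values lay between the 2 WT values. AT3G41979 had 3099, 41068 and 28608 counts in the ASI1 input and RIP libraries, and 1955, 1848 and 9380 counts in those of wild type. The chromosome 3 copy thus held 49.8 to 50.0% of the 5.8S counts of every library, and all 6 counting intervals included an even division. With identical sequences, an even division is no measure of either locus, and shares and ratios below use the sum of the copies.

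Summed over both copies, 5.8S took 0.139% of listed counts in the ASI1 input and 3.21 and 3.17% in ASI1 RIP 1 and 2. It took 0.0612% in the WT input and 3.08 and 3.59% in WT RIP 1 and 2. The mean RIP share was 23.0 times the input share in ASI1 and 54.5 times in wild type. The 4 RIP libraries differed by at most 1.16 times, whereas the ASI1 input held 2.27 times the share of the WT input. The larger ratio in wild type thus stood beside a lower input, with RIP shares of 3.19 ± 0.0285% in ASI1 and 3.34 ± 0.357% in wild type (SD, n = 2 each).

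The 2 subunits' RNAs were also compared with each other inside each library, which needs no scaling between libraries. For each 1000 18S counts there were 1.40 counts of 5.8S in the ASI1 input (95% interval 1.36 to 1.43), and 40.5 (40.2 to 40.8) and 41.3 (41.0 to 41.7) in ASI1 RIP 1 and 2. Wild type had 0.619 (0.599 to 0.638) in the WT input, and 39.8 (38.5 to 41.1) and 46.8 (46.1 to 47.5) in WT RIP 1 and 2. All RIP libraries lay far above both inputs, by a mean of 29.3 times in ASI1 and 70.0 times in wild type. Per base of gene length, 5.8S stood at 1.54% and 0.682% of 18S in the ASI1 and WT inputs. Per base it stood at 44.6 and 45.6% of 18S in ASI1 RIP 1 and 2 and at 43.9 and 51.6% in WT RIP 1 and 2. A ribosome holds 1 molecule of each, and neither kind of library reached an equal level per base.

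Exact two-sided permutation tests of the 4 RIP libraries against the 2 inputs can go no lower than p = 0.133. The 18S share reached that value, with 77.6 ± 1.22% in the RIP libraries (SD, n = 4) against a mean of 99.2% in the inputs. The 5.8S share also reached it, with 3.26 ± 0.223% against input shares of 0.139% and 0.0612%, as did 5.8S per 1000 18S counts, with 42.1 ± 3.20 against 1.01. The part of the chromosome 2 copy in 18S overlapped between RIP and input and gave an exact permutation p of 0.8. The part of 5.8S counts assigned to AT3G41979, which is no measure of either locus, also reached an exact permutation p of 0.133, with 49.88% against 50.02%. Reaching this smallest p therefore carries little weight. Adjusted over the 10 tests of this family by the Benjamini-Hochberg method, the exact permutation p was 0.333 for the first 3 measures and for this part. Between the 2 ASI1 and the 2 WT RIP libraries, the exact permutation p was 0.667 for the 18S share and 1.00 for both the 5.8S share and 5.8S per 1000 18S counts.

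**Figure D3:**
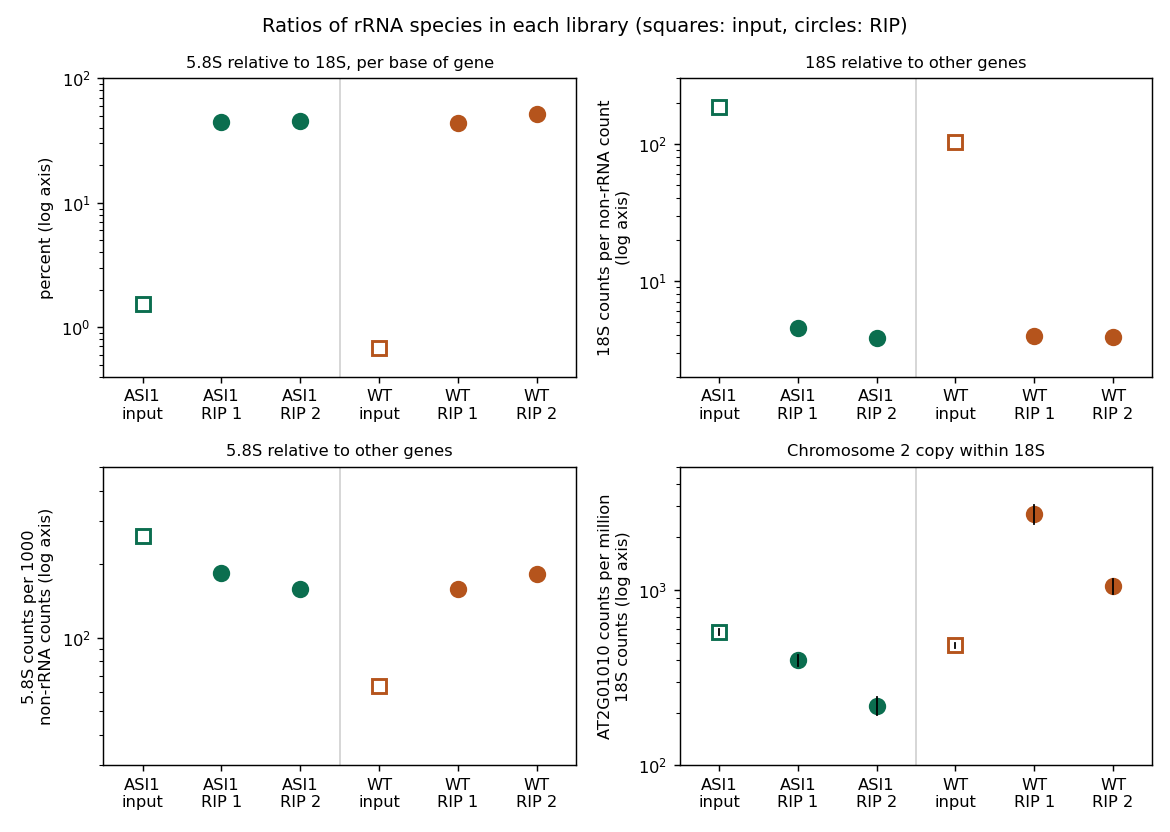
Ratios inside each of the 6 libraries, on log axes: 5.8S over 18S per base of gene in percent, 18S counts per non-rRNA count, 5.8S counts per 1000 non-rRNA counts, and AT2G01010 counts per 1000000 18S counts with exact 95% binomial intervals as vertical bars; squares are inputs and circles RIP libraries. The RIP libraries of both genotypes lie at 43.9 to 51.6% in the first panel, against 1.54% and 0.682% in the inputs, while the genotypes take opposite sides of their inputs in the lower panels.

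Set against all other genes, the 18S and 5.8S RNAs behaved differently. For each non-rRNA count, 18S had 186 counts in the ASI1 input and 4.54 and 3.83 in ASI1 RIP 1 and 2, and 102 in the WT input and 3.99 and 3.89 in WT RIP 1 and 2. The mean input-to-RIP ratio was 44.5 in ASI1 and 26.02 in wild type, with RIP libraries that differed by at most 1.19 times. For each 1000 non-rRNA counts, 5.8S had 260 in the ASI1 input and 184 and 158 in ASI1 RIP 1 and 2. It had 63.4 in the WT input and 159 and 182 in WT RIP 1 and 2. Relative to other genes, 5.8S was therefore lower in both ASI1 RIP libraries than in the ASI1 input (0.657 times) and higher in both WT RIP libraries than in the WT input (2.69 times). AT2G01010, in contrast to its CPM, lay below the input in all 4 RIP libraries on this scale. It had 108 counts per 1000 non-rRNA counts in the ASI1 input and 1.80 and 0.835 after ASI1 RIP, and 49.5 in the WT input and 10.7 and 4.08 after WT RIP. The RIP means of 5.8S were 171 ± 18.2 in ASI1 and 170 ± 16.5 in wild type (SD, n = 2 each), and the inputs differed 4.11-fold. Non-rRNA counts were summed over 4020 listed genes for ASI1 and 4654 for wild type, rRNA genes left out, of which 2323 are shared. Levels on this scale are therefore not strictly alike between genotypes.

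A model of all genes was fitted with edgeR's quasi-likelihood test to the rounded expected counts of all 6 libraries, over the 2312 of 2323 shared genes that passed the filter on low counts. Libraries were scaled by trimmed mean of M values (TMM), and a gene was called at an adjusted p (Benjamini-Hochberg over all genes tested) below 0.05 with a change of at least 2-fold. In the comparison of RIP with input, AT3G41768 fell by 4.41 on the log2 scale in ASI1 (SE 0.0968), with an adjusted p below the smallest value the calculation holds. In wild type it fell by 3.52 (SE 0.0944, edgeR adjusted p = 3.76e-263). It was the 1 gene called lower in each genotype, 0.0433% of those tested, and 0 genes were called higher in either. Both calls were lost when the spread was estimated without a trend on abundance, when each table was fitted alone (-5.97 and -5.10) and in DESeq2 (-5.20 and -3.84). Without the trend, the SE of AT3G41768 was 3.29 in ASI1 and 3.21 in wild type. The small adjusted p-values thus rest on the trend, and do not measure the spread of this gene between libraries. Unadjusted p-values under 0.05 were found for 3 genes in ASI1 and 7 in wild type, and DESeq2 called 2 genes and 0 genes.

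The other rRNA genes were not called by this fit. AT2G01010 had log2 folds of -5.34 (SE 1.69) in ASI1 and -1.70 (SE 1.57) in wild type, with edgeR adjusted p = 1.00 in both. AT2G01020 had log2 folds of 0.46 (SE 1.03) and 2.64 (SE 1.16), and AT3G41979 had 0.45 and 2.63, again with edgeR adjusted p = 1.00. The ASI1 value of 5.8S turned below 0 for both genes without ASI1 RIP 1 (-0.79 and -0.80), without ASI1 RIP 2 (-0.68 and -0.69) and under several other settings given in the closing section. The signs for AT2G01010 in wild type differ between this fit and the CPM values above, since the TMM factors were 0.216 in the WT input and 2.40 and 1.62 in WT RIP 1 and 2. The median log2 fold of all genes tested was 1.12 in ASI1 and -0.18 in wild type under TMM.

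Which rRNA was called depended on the scaling. Positions relative to the median gene moved little between the 3 scalings of the joint fit. A change of scaling shifts all genes nearly alike, so this is no separate check of those positions. They did move when the WT table was fitted alone. With listed totals in place of TMM, both 5.8S genes were called higher, by log2 folds of 4.53 and 4.52 in ASI1 (edgeR adjusted p = 3.61e-13) and 5.77 and 5.76 in wild type (edgeR adjusted p = 3.81e-19). They were 2 of the 3 genes called higher in each genotype (0.13% of those tested), and the third was AT2G15880 in both. Under listed totals the median gene stood at 5.12 in ASI1 and 2.84 in wild type. AT3G41768 then had log2 folds of -0.35 and -0.36, below the minimum for a call. With totals of non-rRNA counts, AT3G41768 (-5.48) and AT2G01010 (-6.35, edgeR adjusted p = 9.36e-05) were the 2 genes called lower in ASI1 (0.0894%), and AT3G41768 (-4.70) the 1 in wild type (0.0447%). In the ASI1 table fitted alone, AT2G01010 (-6.84) and AT2G01008 (-4.27) were among the 11 of 3930 genes called lower (0.28%), with 2 called higher (0.0509%). Relative to the median gene, AT3G41768 lay between -5.57 and -5.46 in ASI1 and between -3.34 and -3.20 in wild type under the 3 scalings. On the same scale AT2G01020 lay between -0.70 and -0.59 in ASI1 and between 2.82 and 2.93 in wild type. In the WT table fitted alone, with 1231 genes tested, AT2G01020 had a log2 fold of 0.98 (SE 3.98) and lay 0.24 above the median gene, and AT3G41768 lay at -5.84 relative to it.

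**Figure D4:**
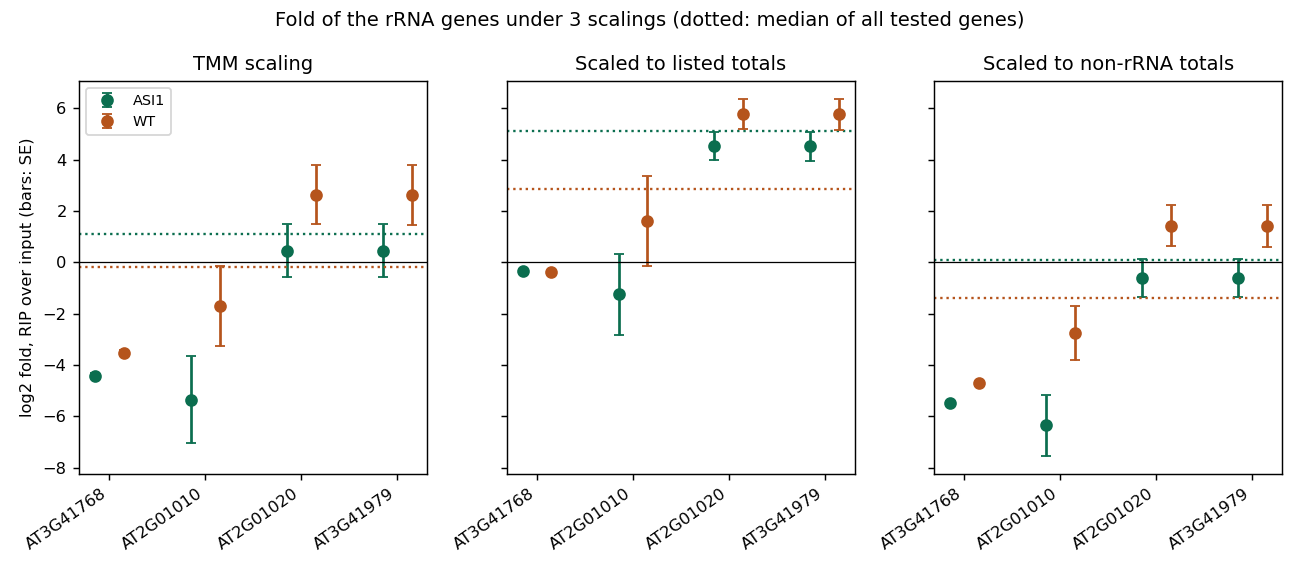
Log2 fold of RIP over input for each rRNA gene in ASI1 and WT under 3 scalings (TMM, listed totals, non-rRNA totals), with points for edgeR estimates, bars for 1 standard error and dotted lines for the median of all genes tested in each genotype. The median gene moves with the scaling, and in ASI1 both 5.8S genes lie below it while in wild type they lie above it under each scaling. A change of scaling shifts all genes nearly alike, so the 3 scalings are not separate checks of these positions.

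Next came the comparison that a pull-down from the ASI1 line asks for, RIP over input in ASI1 against RIP over input in wild type. It called 0 of 2312 genes (0%), where 1 gene had an unadjusted edgeR p under 0.05 and DESeq2 likewise called 0. AT3G41768 differed by -0.89 on the log2 scale (SE 0.137, edgeR adjusted p = 1.8e-07), which is under the 2-fold minimum. It passed that minimum without ASI1 RIP 1 (-1.73) or without ASI1 RIP 2 (-1.62), and under listed totals it was 0.015. The edgeR adjusted p was lost without WT RIP 1 (-1.14, adjusted p = 0.185), without WT RIP 2 (-1.43, adjusted p = 0.348), under listed totals (adjusted p = 0.999) and with no abundance trend, and DESeq2 gave an adjusted p of 1.00. AT2G01010 differed by -3.65 (SE 2.40), AT2G01020 by -2.18 (SE 1.44) and AT3G41979 by -2.17 (SE 1.45), with unadjusted edgeR p of 0.129 for the first and 0.132 for the second. All 4 rRNA genes thus had values below 0 under TMM, AT3G41768 not so under listed totals, while the median gene stood at 1.1. Between the RIP libraries alone, AT3G41768 had a log2 fold of -0.47 in ASI1 over wild type (SE 0.0788, edgeR adjusted p = 7.62e-06), also under the minimum, and stood at 0.020 under listed totals and 0.089 under non-rRNA totals. It passed the minimum without ASI1 RIP 1 (-1.39) or without ASI1 RIP 2 (-1.28). The edgeR adjusted p was lost without WT RIP 1 (0.189), without WT RIP 2 (0.112), in the 4 RIP libraries alone (0.819), with a replicate block there (0.997), with no abundance trend (0.954), under listed totals (0.913) and under non-rRNA totals (0.888), and DESeq2 gave an adjusted p of 0.652. This comparison uses the same RIP libraries as the one above. AT2G01010 had -2.97 (SE 1.43, edgeR adjusted p = 0.949), and the 5.8S genes had -0.58 and -0.57. edgeR called 0 genes in that comparison (0%), with 18 at an unadjusted p under 0.05, against 17 called by DESeq2.

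The authors' deposited table of RIP over input ranked the 18S genes first in ASI1. AT2G01010 was 1st of 4020 genes by p in the authors' deposited table, with a log2 fold of -6.24 and p = 0.000461, and AT3G41768 was 2nd, with -5.36 and p = 0.00162. The 5.8S genes had log2 folds of -0.49 each in the authors' deposited table for ASI1. For wild type, the authors' deposited table gave AT3G41768 -3.98 (p = 0.247) and AT2G01010 -2.32 (p = 0.43). It gave the 5.8S genes 2.21 and 2.19, and no gene had p under 0.05. The deposited false discovery rate was 1 for every gene in both tables, so the ranks are an order and not a call.

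The nearest other transcripts to the units were mostly unlisted. Of 17 further annotated genes within 10 kb, 2 were listed. AT2G01008, a gene annotated as protein-coding 533 bases upstream of the chromosome 2 18S gene, had 207 counts in the ASI1 input and 340 and 184 in ASI1 RIP 1 and 2. It had 239 in the WT input but 1.00 and 7.30 in WT RIP 1 and 2. In CPM it stood at 46.4 in the ASI1 input and at 133 and 102 in ASI1 RIP 1 and 2, and at 37.5 in the WT input and 8.67 and 14.0 in WT RIP 1 and 2. Its order in CPM was thus opposite to that of AT2G01010 in both genotypes. Its log2 folds were -2.74 (SE 2.77) and -4.83 (SE 2.96), with edgeR adjusted p = 1.00 in both. AT3G41762, upstream of the chromosome 3 unit and on the other strand, held at most 90.5 counts in any library. The 25S gene of the large subunit was not analysed here.

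Small noncoding RNAs that guide or accompany RNA processing were few in the tables. Of 287 annotated small nucleolar RNA genes 1 was listed, U3D (AT5G54075), whose family guides the cuts that free 18S. U3D had 24.2 counts in the ASI1 input and 38.7 and 114 in ASI1 RIP 1 and 2, and 16.9, 0 and 6.30 in those of wild type. Per 1000000 non-rRNA counts it was at 1018 in the ASI1 input and 86.2 and 314 in ASI1 RIP 1 and 2. In wild type it was at 275 in the input and 0 and 60.8 in WT RIP 1 and 2. On that scale the RIP libraries of each genotype lay below its input. Of 82 small nuclear RNA genes 3 were listed. U1.5 (AT1G08115), a gene for the U1 RNA that recognises 5′ splice sites, had 25.7 counts in the ASI1 input and 2573 and 2286 in ASI1 RIP 1 and 2, and 27.8, 296 and 716 in those of wild type. Per 1000000 non-rRNA counts U1.5 was at 1080 and 451 in the ASI1 and WT inputs and between 5736 and 12724 in the RIP libraries, so RIP libraries of both genotypes lay above both inputs. U12 (AT1G61275) and U4.2 (AT3G06900) were listed for ASI1 only. On the same scale U12 fell from 216 in the ASI1 input to 30.3 and 20.2 in ASI1 RIP 1 and 2. U4.2 was at 259 in the ASI1 input and 2.33 and 511 in ASI1 RIP 1 and 2. In counts, U12 held at most 13.6 in a library, and U4.2 reached 185 in ASI1 RIP 2.

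A list of 40 genes for making ribosomes (polymerase I subunits, small nucleolar ribonucleoprotein proteins, processing factors and nucleases) was used to describe the mRNAs of the same pathway. Of these, 14 were listed for ASI1, 24 for wild type and 10 in both tables, and all 10 were tested. In edgeR's test 0 of 10 were called in either direction in any comparison, and 0 had an unadjusted p under 0.05. Values were above 0 for 8 of 10 in ASI1, near the 1739 of all 2312 genes tested, with a median log2 fold of 1.49 against 1.12 for all genes tested. In wild type they were above 0 for 3 of 10, against 1068 of 2312, with -0.14 against -0.18. The difference of enrichment, ASI1 minus WT, was above 0 for 7 of 10, among them XRN2 and NOP56, against 1473 of 2312. It was below 0 for PES, a large-subunit assembly factor (-5.70), NAP57 (-0.19) and RRP44A (-0.01). XRN2, an exonuclease that trims rRNA precursors, had 5.14 counts in the ASI1 input and 164 and 160 in ASI1 RIP 1 and 2, and 7.21, 0 and 1.05 in those of wild type. NOP56, a core protein of box C/D small nucleolar particles, had 5.14, 165 and 1.04 counts in the ASI1 libraries and 9.27, 0 and 2.10 in those of wild type. Both were among the 8 members that reached 100 counts in a library, each time an ASI1 RIP library and never a WT RIP library. A threshold in counts depends on depth, so this split is no comparison of the genotypes. Non-rRNA counts were 448561 and 362058 in ASI1 RIP 1 and 2, and 23304 and 103549 in WT RIP 1 and 2. The WT RIP libraries held fewer non-rRNA counts, and the list took 0.107 and 0.141% of them, against 0.231 and 0.262% in ASI1 RIP 1 and 2. All 4 values lay below the inputs, where the list took 0.298% in ASI1 and 0.316% in wild type. These shares sum 14 listed genes for ASI1 and 24 for wild type, over totals of different gene sets. They are therefore no comparison of the genotypes. PES alone held 95.5 of the list's 146 counts in WT RIP 2.

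The genes whose levels most followed the rRNA were named by Pearson's r of log2(CPM + 1) over the 6 libraries among 1585 genes, as a description. All points share 2 inputs with under 1% of counts outside rRNA and 4 RIP libraries with 17.5 to 20.1%, and CPM depends on that share. The 5.8S sum was followed by U1.5 (r = 0.99), AT4G18670 (0.99), AT2G15880 (0.98), FNR2 (0.98) and PEN3 (0.98). FNR2 is a chloroplast ferredoxin reductase and PEN3 a transporter of the plasma membrane. AT3G41768 ran opposite to 5.8S (r = -0.98), and the closest of the other genes to it, AT1G14270, reached only 0.30. AT2G01010 followed neither its 18S partner (r = -0.04) nor 5.8S (r = 0.03).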

How the data were processed

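The 6 libraries were 1 input and 2 RIP libraries each of ASI1 and WT. For each genotype the authors deposited a table of expected counts, CPM, log2 folds, p-values and false discovery rates per gene. The submitters' processing notes name STAR 2.6.0c, Salmon 0.10.2 and edgeR, with no role or order, and for the genome build and strand setting of the counting nothing is given in the sources used here. Deposited CPM equalled expected counts scaled to the listed total, with a largest relative difference of 4.8e-15. The tables hold different genes (4020 for ASI1, 4654 for WT), and 2323 genes listed in both entered the joint fit. The authors' deposited log2 folds and p-values were used only where named.

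Expected counts were rounded and fitted with edgeR 4.0.16 in R 4.3.3 (glmQLFit, glmQLFTest, TMM on listed totals, filterByExpr), with 1 coefficient per group, 2 residual degrees of freedom and Benjamini-Hochberg adjustment over 2312 genes. DESeq2 1.42.0, other scalings, no filter, no abundance trend, each table alone and leaving out each RIP library were alternatives. Shares and ratios used unrounded counts and exact permutation tests (scipy 1.17.1). The fitting steps were also run on simulated data, but the outcome is not given here and lends no weight to the calls above. Sequences were read from RefSeq TAIR10.1. The members and gene lists were chosen with earlier results of these data known. Genes named besides members were those of the lists, listed genes within 10 kb of a member, other listed noncoding RNAs and the 5 genes with the highest r.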

Additional observations from a re-analysis of the deposited data

Results flagged for a closer look

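Values that separated the genotypes are collected here. The log2 difference of enrichment of AT3G41768, ASI1 minus WT, was -0.89 and passed the adjusted p in edgeR's test of the difference, though not the 2-fold minimum. The adjusted p was lost without WT RIP 1 (0.185), without WT RIP 2 (0.348), under listed totals (0.999), without the abundance trend and in DESeq2 (1.00 in both). AT2G01010 stood out because both ASI1 RIP libraries lay below their input and both WT RIP libraries above theirs, in CPM (mean RIP over input 0.420 in ASI1 and 3.02 in WT) and as a part of 18S (0.532 and 3.87). Per 1000 non-rRNA counts it lay below the input in all 4 RIP libraries (0.0123 of the input in ASI1 and 0.150 in WT), and its TMM-scaled log2 fold in WT was -1.70. The sum of 5.8S per 1000 non-rRNA counts lay on opposite sides of the inputs, with a mean RIP over input of 0.657 in ASI1 and 2.69 in WT, while as a share of listed counts it lay above the input in all 4 RIP libraries. The difference between genotypes in these ratios was not tested as such. In edgeR's test of the difference, AT2G01010 and both 5.8S genes had an adjusted p of 1.00.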

How the results depend on the processing

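Of 160 alternative values of member folds 121 kept direction and side of the threshold. Of 40 counts of calls, 22 equalled the main count or lay within a set ratio of it. Of 24 shares and ratios, 21 lay within the SD of the RIP libraries from the main value, and the other 3 kept their direction. Leaving out 1 of 2 RIP libraries always moves their mean by less than their SD. Those alternatives could not fail and are no check of these values. The 3 that moved all came from taking shares over the genes listed in both tables. Causes of the changes were not tested except where the alternative leaves out samples or genes. For RIP over input in ASI1, the genes called numbered 2 with DESeq2 size factors, 3 with listed totals, 2 with non-rRNA totals, 0 with no abundance trend, 13 in the ASI1 table alone, 2 in DESeq2, and 1 to 10 on leaving out a library (10 without ASI1 RIP 1). In wild type they numbered 3 with listed totals and 0 with no trend, in the WT table alone and in DESeq2. For the difference of enrichment 1 gene was called with DESeq2 size factors and 0 to 1 on leaving out a library. Between RIP libraries 1 gene was called with size factors, 17 by DESeq2 and 0 to 3 on leaving out a library.

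AT3G41768 lost its call with listed totals (-0.35 in ASI1, -0.36 in wild type), no trend (-4.41 and -3.52), its own table (-5.97 and -5.10) and DESeq2 (-5.20 and -3.84). Its difference of enrichment was -1.36 with size factors, 0.015 with listed totals and -1.73 to -1.14 on leaving out a library. Between RIP libraries it was -1.04 with size factors, 0.020 with listed totals, 0.089 with non-rRNA totals and -1.39 to -0.73 on leaving out a library. AT2G01010 was called in ASI1 with size factors (-6.12), non-rRNA totals (-6.35) and the ASI1 table alone (-6.84), and stood at 1.59 in wild type with listed totals. The ASI1 fold of AT2G01020 was 4.53 with listed totals, -0.32 with size factors and in DESeq2, -0.60 with non-rRNA totals, -1.10 in its own table and -0.79 to -0.68 on leaving out a library. That of AT3G41979 was 4.52, -0.33 in both, -0.61, -1.11 and -0.80 to -0.69. In wild type both were called with listed totals (5.77 and 5.76), and between RIP libraries they were 0.003 and 0.006 with non-rRNA totals. Over genes listed in both tables, the 18S share in RIP minus input was -16.9 percentage points in ASI1 and -17.7 in wild type, and the 5.8S share 3.24 in ASI1.

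The labels do not say whether replicate numbers pair the samples. The deviations of same-numbered RIP libraries had r = 0.0119 over 2319 genes, which 2 pairs cannot settle. In the 4 RIP libraries with a replicate block, 0 genes were called (3 at an unadjusted p under 0.05), against 0 (26) without it, and AT3G41768 had a log2 fold of -0.61, AT2G01010 -3.12 and the 5.8S genes -0.69 and -0.68. The depth of the WT RIP libraries, 119916 and 525126 listed counts, limits the low-count genes. So does that of the inputs, with 23810 non-rRNA counts in ASI1 and 61644 in WT, and each input is a single library.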
